A study of Mus musculus with 19 samples.

Results

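The oligoadenylate synthetase (OAS) family was followed through 19 hepatocyte libraries from young and old mice. The 8 members followed (Oas1a, Oas1b, Oas1c, Oas1g, Oas2, Oas3, Oasl1 and Oasl2) were taken by gene symbol from the 24537 genes of the deposited count table. It also holds 4 other Oas1 genes (Oas1d, Oas1e, Oas1f and Oas1h) with few or no counts. All mice were male wild-type animals of the C57BL/6J strain with no transgene or treatment in the labels, and each gave 1 library of polyadenylated RNA. There were 10 young mice labelled 5 months old and 9 old mice labelled 24 months old. They were culled on 2 days 23 days apart, 5 of each age on the first and 5 young with 4 old on the second. Going by the birth and cull dates, the young mice were 140 or 163 days old and the old mice 719 or 742 days. Mice are named here by their library numbers. The statistical tests take each mouse as 1 replicate.

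OAS enzymes detect double-stranded RNA in the cytoplasm and join ATP into short chains linked 2′ to 5′, called 2-5A. These chains act as a second messenger of antiviral defence. Interferons induce the family strongly through a response element in the promoters, and in the liver both hepatocytes and the resident macrophages (Kupffer cells) can express it. The OAS-like proteins Oasl1 and Oasl2 carry an added tail of ubiquitin-like domains.

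The 8 genes lie on mouse chromosome 5 (mm10 build) in a pair of clusters. Oasl2 (chr5:114896934-114912245) and Oasl1 (chr5:114923240-114937911) are neighbours on the plus strand. The second cluster holds Oas2 (chr5:120730333-120749848), Oas3 (chr5:120753098-120777659), Oas1c (chr5:120800199-120812514), Oas1b (chr5:120812635-120824160), Oas1g (chr5:120876142-120887613) and Oas1a (chr5:120896257-120907525). Of these 6 genes Oas1b is on the plus strand and the others are on the minus strand. No other row of the table overlaps any member. The table counts Oas1b and Oas1g over non-coding transcript records, and Oas1b is known to carry a premature stop in common laboratory strains. The Oas1 genes are close copies of each other, so the division of reads among Oas1a, Oas1b, Oas1c and Oas1g is uncertain.

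Promoter sequence is shown to place the interferon response element in the copies. RefSeq windows on GRCm38.p6, from 250 bases before to 50 bases after a gene's start, were available for 6 of the 8 members, the exceptions being Oas2 and Oas1b. Each was searched for GAAANNGAAA, the core of the interferon-stimulated response element, on both strands (TTTCNNTTTC on the other). Overlapping matches were merged. The core was found in 4 of the 6 member windows, against 1131 of 32851 windows in all (3.44%). The matching stretches, with the core in capitals and read 5′ to 3′ along the strand named, are as follows.
Oas3, minus strand, chr5:120777705-120777754: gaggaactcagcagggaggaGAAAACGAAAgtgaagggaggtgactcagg
Oas1g, minus strand, chr5:120887614-120887651: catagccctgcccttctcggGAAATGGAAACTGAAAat
Oas1a, minus strand, chr5:120907526-120907565: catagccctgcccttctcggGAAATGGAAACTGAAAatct
Between Oas1c and Oas1b, plus strand, chr5:120812515-120812634: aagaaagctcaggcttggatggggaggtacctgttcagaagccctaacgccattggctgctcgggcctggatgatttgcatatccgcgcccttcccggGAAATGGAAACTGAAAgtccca
In Oas3 the core sits 75 to 66 bases before the start. In Oas1g and Oas1a it sits 18 to 3 and 20 to 5 bases before the start, as a double core of 16 bases. Oas1c and Oas1b are transcribed away from each other from starts 120 bases apart, and the same 16 bases lie between them. There they sit 22 to 7 bases before the start of Oas1b and 114 to 99 bases before that of Oas1c, on the strand opposite to Oas1c. The 16 bases are identical in Oas1a, Oas1g and the stretch shared by Oas1b and Oas1c. Aligned whole, the Oas1a and Oas1g windows were 85.3% identical (261 of 306 columns). The windows of Oasl1 and Oasl2 held no match to these letters. A match describes the letters only and is not evidence of a bound site.

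Library totals ran from 17.4 to 20.3 × 10⁶ counts over genes, so the depth was similar throughout. The 8 hepatocyte marker genes (among them Alb and Ttr) summed to 85610 to 146978 CPM (counts scaled to a common library size) in young and 113923 to 190374 CPM in old libraries, a sum carried by Alb. By age 2 of these 8 markers were called higher (Alb and Apoa1) and 3 lower (Tat, Cps1 and Hnf4a). Markers of other liver cells were present too. The 17 macrophage markers summed to 159 to 743 CPM in young and 94.6 to 3847 CPM in old libraries, with none at 0 in all libraries. Old mouse 1187 stood apart with the highest macrophage level. In bulk RNA, fewer cells of a type and less RNA per cell cannot be told apart.

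Oasl1 was by far the most abundant member per length of counted transcript. Its median over the 19 libraries was 6.83 CPM per kilobase, followed by Oas1a at 1.23, Oasl2 at 0.684, Oas1g at 0.468, Oas1c at 0.384, Oas1b at 0.319, Oas2 at 0.192 and Oas3 at 0.187 CPM per kilobase. Oasl1 lay above Oas1a in 19 of 19 libraries, Oas1a above Oasl2 in 18, and Oasl2 above Oas1g in 18. Below that the order was loose. Oas1g lay above Oas1c in 12 of 19 libraries, Oas1c above Oas1b in 8, and Oas2 above Oas3 in 12, so these neighbours were not separated. Oas1b lay above Oas2 in 17. Within each library Oasl1 made up 71.7% ± 6.35 (SD, n = 10) of the family's per-length sum in young mice and 61.6% ± 12.9 (SD, n = 9) in old mice. In old mouse 1187 its share was 32.7%, with Oas1a at 23.2% and Oasl2 at 19.3% of the sum.

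**Figure D1:**
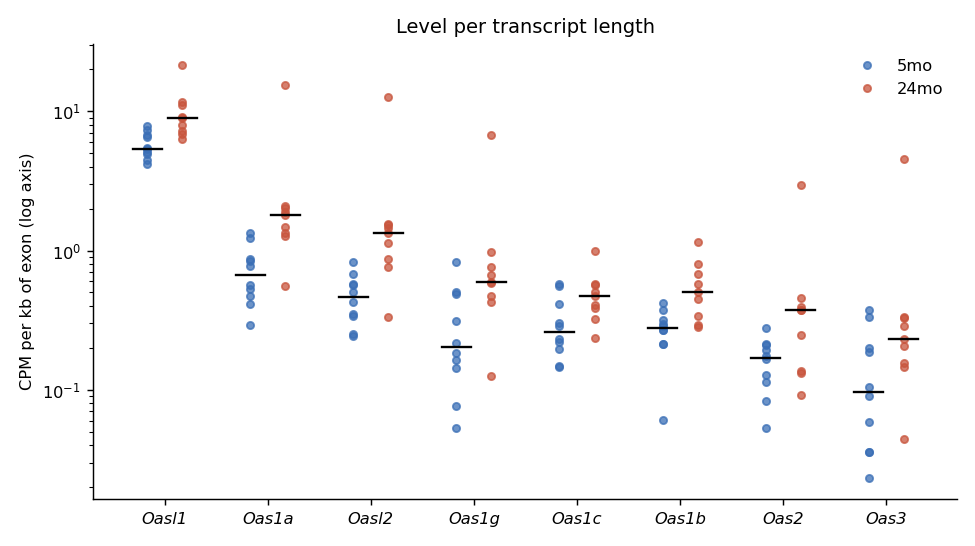
Level of each OAS family member in CPM per kilobase of counted transcript (log axis), with 1 point per library, young (5mo, n = 10) and old (24mo, n = 9) side by side and a bar at each group's median. Oasl1 lies above every other member, with a median of 6.83 over all libraries, and the single highest old point of each member is mouse 1187.

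Most of the family was higher in old hepatocyte preparations. Of the 8 members, 7 passed an adjusted p of 0.05 for age in edgeR's quasi-likelihood test with cull day as a covariate (Benjamini-Hochberg adjustment over 12269 genes), and all 7 were higher in old mice. The background share of genes called higher was 16.3%. The median log2 fold change of the 8 members was 1.84, against -0.003 over all genes tested. Its size depended on old mouse 1187, which had the highest level of every member. Without it 4 of the 8 members were called (Oas1a, Oas1b, Oasl1 and Oasl2), against a background of 12.4%.

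Oas1a, which encodes an active 2-5A synthetase, ran from 0.546 to 2.52 CPM in young libraries with a median of 1.26. In old libraries it ran from 1.04 to 28.8 CPM with a median of 3.40. Of the 9 old libraries, 7 lay above every young library, and old mouse 1183, the lowest, lay inside the young range. The log2 fold change was 1.96 (SE 0.486, adjusted p = 0.00648 in edgeR). Mouse 1187 was 7.32 times the next old mouse, and without it the log2 fold change was 1.10 (SE 0.279, adjusted p = 0.00862 in edgeR).

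Oas1g, which shares the double core with Oas1a, ran from 0.110 to 1.70 CPM in young libraries (median 0.415) and from 0.260 to 13.97 CPM in old libraries (median 1.24). Only 4 of the 10 young libraries held at least 10 counts of it, and 2 of the 9 old libraries lay above all young ones, so the groups overlapped widely. It was higher in old mice, at a log2 fold change of 2.02 (SE 0.585, adjusted p = 0.0142 in edgeR). Without mouse 1187, which was 6.97 times the next old mouse, the value was 1.01 (SE 0.422) and missed the threshold (edgeR adjusted p = 0.0837).

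The divergent pair Oas1b and Oas1c was low in every library. Oas1b ran from 0.112 to 0.768 CPM in young libraries (median 0.511) and from 0.522 to 2.09 CPM in old libraries (median 0.924), with 6 of 9 old libraries above every young one. Mouse 1187 stood out less here, at 1.42 times the next old mouse. The log2 fold change of Oas1b was 1.05 (SE 0.291, adjusted p = 0.0113 in edgeR), and 0.80 (SE 0.242, adjusted p = 0.0218 in edgeR) without that mouse. Oas1c ran from 0.330 to 1.32 CPM in young libraries (median 0.591) and from 0.536 to 2.27 CPM in old libraries (median 1.08), and 2 of 9 old libraries lay above all young ones. Its log2 fold change of 0.69 (SE 0.293, adjusted p = 0.0761 in edgeR) did not pass, and Oas1c was the one member without a call for age.

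Oas2 encodes a synthetase with a repeated catalytic unit. Its level ran from 0.211 to 1.09 CPM in young libraries (median 0.671) and from 0.364 to 11.6 CPM in old libraries (median 1.48). The old libraries were split, with 5 of 9 above all young libraries and 3 below the young median. It was higher in old mice, at a log2 fold change of 1.73 (SE 0.555, adjusted p = 0.0237 in edgeR), and without mouse 1187 the value was 0.72 (SE 0.322) and was not called (edgeR adjusted p = 0.103).

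Oas3, the longest member and the synthetase known to respond best to long double-stranded RNA, ran from 0.109 to 1.75 CPM in young libraries (median 0.456) and from 0.208 to 21.4 CPM in old libraries (median 1.08). Mouse 1187 alone lay above all young libraries, at 13.7 times the next old mouse. The log2 fold change was 1.99 (SE 0.693, adjusted p = 0.0345 in edgeR). Without that mouse it was 0.66 (SE 0.446, adjusted p = 0.282 in edgeR), and in all the call was lost in 7 of the 19 fits that left out 1 mouse.

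Oasl1, which lacks synthetase activity and is known to hold back translation of Irf7, ran from 8.84 to 16.5 CPM in young libraries (median 11.4) and from 13.5 to 45.7 CPM in old libraries (median 18.95). Of the 9 old libraries, 6 lay above all young ones and none lay below the young median. The lowest old mouse was 1189, not 1183 as for Oas1a. The log2 fold change was 0.79 (SE 0.195, adjusted p = 0.00646 in edgeR), and 0.58 (SE 0.140, adjusted p = 0.0066 in edgeR) without mouse 1187, which was 1.86 times the next old mouse.

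Oasl2, an OAS-like protein that in the mouse keeps synthetase activity, ran from 0.764 to 2.57 CPM in young libraries (median 1.46) and from 1.04 to 39.9 CPM in old libraries (median 4.17). As for Oas1a, 7 of 9 old libraries lay above all young libraries and mouse 1183 was the lowest old one. It had the largest log2 fold change of the 8 members, 2.21 (SE 0.524, adjusted p = 0.00489 in edgeR). Without mouse 1187, which was 8.27 times the next old mouse, the value was 1.21 (SE 0.280, adjusted p = 0.00466 in edgeR).

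**Figure D2:**
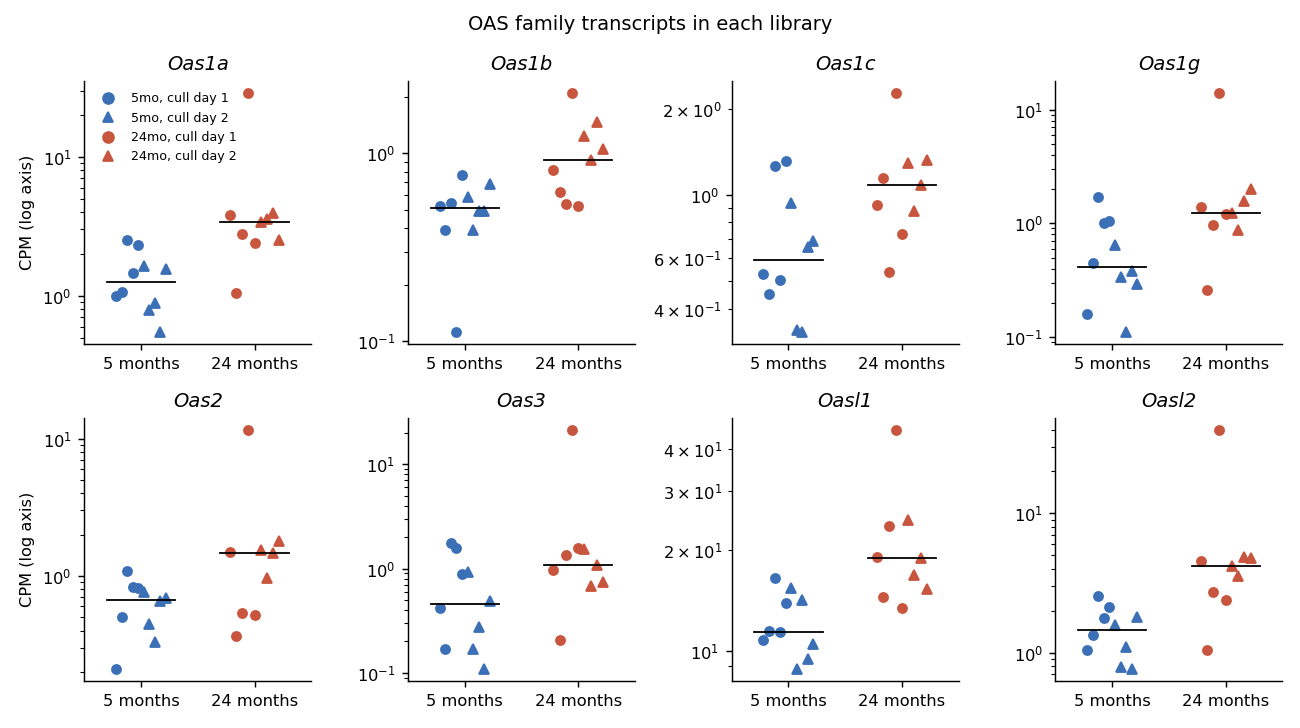
CPM of each OAS family member in every library (log axis, a scale of its own in each panel), young and old mice side by side, with circles for the first cull day, triangles for the second and a bar at each group's median. The highest old point in all 8 panels is mouse 1187 of the first cull day, at 28.8 CPM for Oas1a and 39.9 CPM for Oasl2.

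More members passed on the second cull day, the one without mouse 1187. There 7 of 8 members were called higher in old mice (all but Oas3, edgeR adjusted p = 0.0704), against a background of 12.2%. On the first cull day alone 0 of 8 passed in edgeR, with 3 at an unadjusted p under 0.05 and a background of 1.88%, though 6 of the 8 fold changes were larger than on the second. Oasl2, for example, had a log2 fold change of 2.49 on the first day (edgeR adjusted p = 0.121) and 1.83 on the second (edgeR adjusted p = 0.000998). Oas1a had 2.21 (edgeR adjusted p = 0.129) and 1.62 (edgeR adjusted p = 0.00273). Oas1c had 0.47 on the first day (edgeR adjusted p = 0.528) and 0.95 on the second (edgeR adjusted p = 0.0485). The difference between the days was tested as an interaction, and 0 of 8 members passed in edgeR, with 0 at an unadjusted p under 0.05. Over all genes 0 passed as well (0.0%, with 799 at an unadjusted p under 0.05), and DESeq2 called 10 genes, none of them a member. Standard errors of the members' interaction ran from 0.398 for Oasl1 to 1.40 for Oas3, on the log2 scale.

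A further fit left out 3 young mice (1184, 1186 and 1188), chosen from earlier results of these data. The highest young level was that of mouse 1184 for Oas1a, Oas1g, Oas2, Oas3, Oasl1 and Oasl2, and that of mouse 1188 for Oas1b and Oas1c. Without these 3 mice 6 of 8 members were called higher in old mice, against a background of 14.6%. Oas2 (edgeR adjusted p = 0.0637) and Oas3 (edgeR adjusted p = 0.0807) lost their calls there and Oas1c (edgeR adjusted p = 0.0241) gained one. Without these 3 mice and without mouse 1187 all 8 members were called higher in old mice, against a background of 15.7%. The young mice left out include the highest young library of every member. A wider gap between the ages therefore follows in part from that choice, and the 8 calls are not separate support.

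Macrophage marker levels were then set beside the family, because they varied widely among libraries. A macrophage score was taken as the mean log2 CPM of the 15 macrophage markers that passed the count filter. It averaged 3.62 ± 0.791 (SD, n = 10) in young mice and 4.70 ± 1.39 (SD, n = 9) in old mice. Compared within cull days, the old mice exceeded the young by 1.10 (exact permutation p = 0.0439, 31752 relabellings within cull days, two-sided). A score from the 4 defining markers (Adgre1, Clec4f, Csf1r and Cd68) differed by 1.04 and did not pass (exact permutation p = 0.059). The highest score was that of mouse 1187 at 7.33 and the lowest that of old mouse 1183 at 1.98, and the young scores ran from 2.62 to 5.01. Of the 15 tested markers 13 were called higher in old mice, against 16.3% of all genes. Without mouse 1187 the count was 2 of 15, near the background of 12.4%. The 4 defining markers were called singly with mouse 1187 and none was called without it.

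Oas1a, Oas1g, Oas2, Oas3 and Oasl2 followed the macrophage score closely. Over all 19 libraries the Pearson correlation of log2 CPM with the score was 0.954 for Oas1g (Spearman 0.940) and 0.912 for Oasl2 (Spearman 0.884). It was 0.912 for Oas2 (Spearman 0.923), 0.885 for Oas1a (Spearman 0.833) and 0.883 for Oas3 (Spearman 0.793). Each of these 5 r values had a permutation p of 1e-05, the smallest that 100000 permutations can give, and a Benjamini-Hochberg adjusted p of 0.000283 over 12269 genes. The adjusted permutation p of rho was 0.000386 for Oas1g and Oas2, 0.000872 for Oas1a and Oasl2, and 0.00198 for Oas3. The other members were looser. Oasl1 had r = 0.743 (permutation p = 0.00049, adjusted p = 0.0051) and rho = 0.667 (permutation p = 0.00225, adjusted p = 0.0197). Oas1c had r = 0.637 (permutation p = 0.00304, adjusted p = 0.0207) and rho = 0.625 (permutation p = 0.00509, adjusted p = 0.0355). Oas1b had r = 0.526 (permutation p = 0.0232, adjusted p = 0.0889) and rho = 0.589 (permutation p = 0.00885, adjusted p = 0.0523) and did not pass. In all, 7 of 8 members passed for r, against 13.9% of all genes. Points of such a plot share a library, its depth and its makeup of cells.

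Leaving out mice 1187 and 1183, the farthest from the median score, kept r at 0.945 for Oas1g, 0.869 for Oasl2, 0.865 for Oas2, 0.819 for Oas1a and 0.779 for Oas3. For Oas1c it was 0.701, for Oasl1 0.640 and for Oas1b 0.354. Without mouse 1187 alone, r was 0.470 for Oas1c and 0.546 for Oasl1, and both lost their calls (permutation, adjusted p = 0.218 and 0.121). That left 5 of the 8 members passing.

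Oas1g and Oas2 passed for r within each age and on each cull day. Among the 10 young mice r was 0.913 for Oas1g (permutation p = 0.00029, adjusted p = 0.0163), 0.848 for Oas2 (permutation p = 0.00199, adjusted p = 0.0384) and 0.849 for Oas3 (permutation p = 0.00205, adjusted p = 0.0386). These 3 members passed, against 4.12% of all genes. Their rho values were 0.842, 0.939 and 0.794, of which that of Oas2 passed (permutation, adjusted p = 0.0822, 0.0281 and 0.119). Without mice 1184 and 1186, the farthest from the young median score, r was 0.835, 0.816 and 0.638. Among the 9 old mice r was 0.963 for Oas1g (exact permutation p = 0.000413, adjusted p = 0.0238), 0.908 for Oas2 (exact permutation p = 0.000681, adjusted p = 0.0281) and 0.945 for Oasl2 (exact permutation p = 0.00136, adjusted p = 0.0382), and again 3 passed, against 4.1%. Their rho values were 0.883, 0.983 and 0.867, of which that of Oas2 passed (exact permutation, adjusted p = 0.0953, 0.0174 and 0.118). Without mice 1183 and 1187 the old values were 0.894, 0.849 and 0.779 for these 3 members. The old-mouse values of Oas1a, Oas3 and Oasl1 rested on those 2 mice: 0.896, 0.862 and 0.717 with them became -0.02, -0.39 and -0.13 without.

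By cull day, r passed on the first day, the one with mouse 1187, for Oas1a, Oas1g, Oas2, Oas3 and Oasl2, against a background of 4.74%. Of these, rho passed for Oas1g and Oas2 (permutation, adjusted p = 0.0228 for each). It did not pass for Oas1a, Oas3 and Oasl2 (permutation, adjusted p = 0.0948, 0.0591 and 0.0839). For the second day r passed for Oas1a, Oas1c, Oas1g, Oas2 and Oasl2, against a background of 7.88%. On the second day, which holds neither mouse 1187 nor mouse 1183, r was 0.955 for Oas1g (exact permutation p = 0.000218, adjusted p = 0.0109) and 0.861 for Oas1a (exact permutation p = 0.00476, adjusted p = 0.0454). The rho values were 0.917 and 0.800 (exact permutation, adjusted p = 0.0283 and 0.0916), and without the 2 mice farthest from that day's median score r was 0.927 and 0.952. Each cull day holds both ages. On the second every old score lay above every young score, so r there cannot be told apart from the age difference. Among that day's old mice, mouse 1242 had the highest score, with the lowest Oas1a (2.53 CPM) and the highest Oas1g (2.00 CPM).

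**Figure D3:**
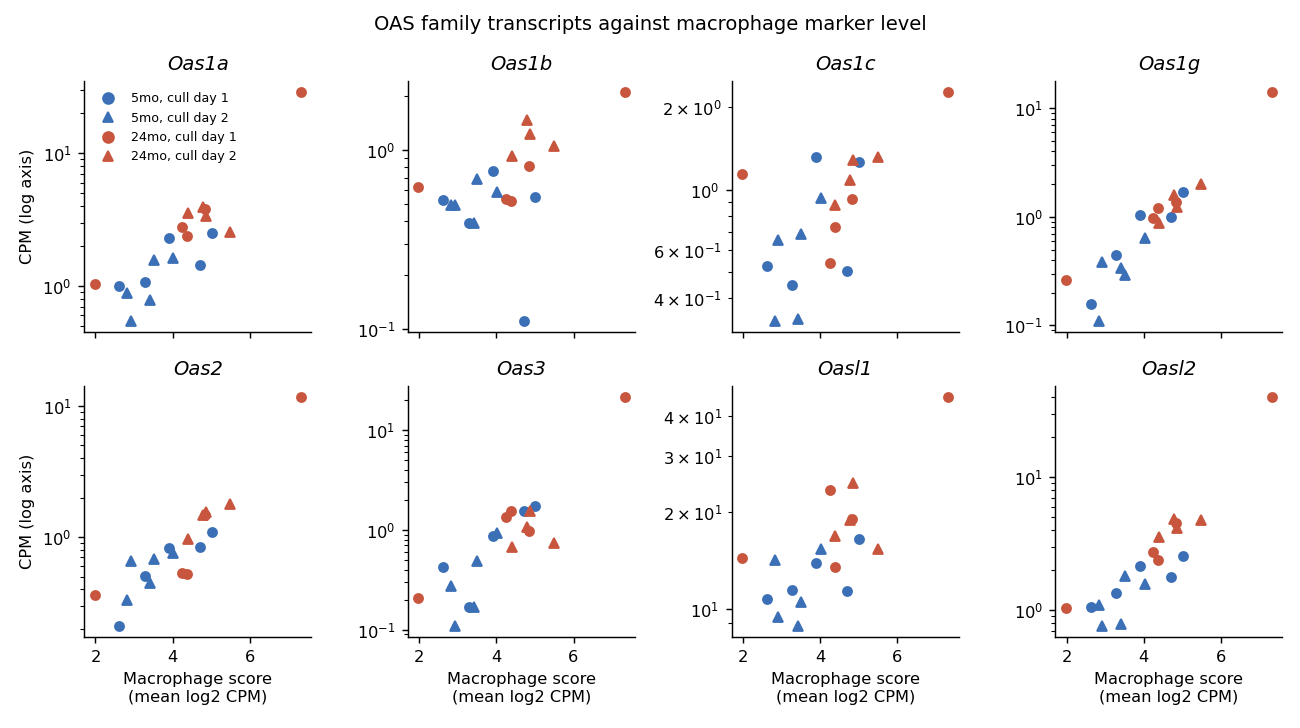
CPM of each OAS family member (log axis) against the macrophage score of the same library (mean log2 CPM of 15 markers), coloured by age and shaped by cull day. Oas1g, Oas2 and Oasl2 follow the score with r of 0.954, 0.912 and 0.912 over 19 libraries, while Oas1b (r = 0.526) and Oasl1 (r = 0.743) are looser, and mouse 1187 is the point at a score of 7.33.

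The age fit was repeated with the macrophage score as a further covariate, so that age and marker level were estimated side by side. Given age and cull day, 7 of 8 members had a slope on the score above 0 that passed in edgeR, against a background of 13.9%. In the same fit 11 of 11 endothelial and 10 of 10 stellate markers also had such a slope, and 0 of 8 hepatocyte markers. The score thus moved with markers of other liver cells too, and a slope on it is not particular to macrophages. The members' slopes, in log2 units per unit of score, fell into a steep and a shallow set, a grouping made after the values were seen. The steep set was Oas3 at 1.25 (SE 0.116, adjusted p = 6.69e-08 in edgeR), Oas1g at 1.15 (SE 0.0734, adjusted p = 3.35e-10 in edgeR), Oas2 at 1.05 (SE 0.0964, adjusted p = 5.94e-08 in edgeR), Oasl2 at 0.95 (SE 0.0874, adjusted p = 6.34e-08 in edgeR) and Oas1a at 0.85 (SE 0.0938, adjusted p = 8.02e-07 in edgeR). The shallow set was Oas1b at 0.30 (SE 0.107, adjusted p = 0.0492 in edgeR), Oas1c at 0.29 (SE 0.105, adjusted p = 0.054 in edgeR, not called) and Oasl1 at 0.27 (SE 0.0629, adjusted p = 0.0046 in edgeR). The median slope of the 8 was 0.90, against -0.006 over all genes. Without mouse 1187 the 5 steep slopes were all still called (background 9.82%), at 0.96 for Oas3, 1.06 for Oas1g, 0.71 for Oas2, 0.63 for Oasl2 and 0.56 for Oas1a. The 3 shallow ones were not, at 0.09 for Oas1b, 0.21 for Oas1c and 0.14 for Oasl1.

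With the score in the fit, the age difference of the family shrank. None of the 8 members was called for age in edgeR (4 at an unadjusted p under 0.05), where 10.1% of all genes were called higher, and the median log2 fold change of the members was 0.40. For Oas2 the log2 fold change went from 1.73 to 0.02 (SE 0.280, adjusted p = 0.975 in edgeR). For Oas3 it went from 1.99 to 0.001 (SE 0.338, adjusted p = 0.997 in edgeR). For Oas1g it went from 2.02 to 0.24 (SE 0.207, adjusted p = 0.489 in edgeR). The other members kept a positive estimate of which none passed. Oas1b stood at 0.65 (SE 0.287, adjusted p = 0.110 in edgeR), Oas1a at 0.61 (SE 0.258, adjusted p = 0.0986 in edgeR), Oasl2 at 0.60 (SE 0.245, adjusted p = 0.0853 in edgeR), Oasl1 at 0.45 (SE 0.158, adjusted p = 0.0502 in edgeR) and Oas1c at 0.35 (SE 0.276, adjusted p = 0.378 in edgeR). The count of 0 moved with single mice, to 1 without young mouse 1235 (background 8.75%) or 1239 (10.2%) and to 2 without old mouse 1189 (11.4%) or 1242 (9.28%). Without old mouse 1187, and with the score still in the fit, 3 of 8 members were called (background 13.0%), namely Oasl2 at 0.70 (SE 0.173, adjusted p = 0.00726 in edgeR), Oasl1 at 0.47 (SE 0.142, adjusted p = 0.0216 in edgeR) and Oas1a at 0.68 (SE 0.208, adjusted p = 0.0234 in edgeR). The same 3 were called in all 19 libraries when the score was built from the 4 defining markers only (background 10.8%).

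**Figure D4:**
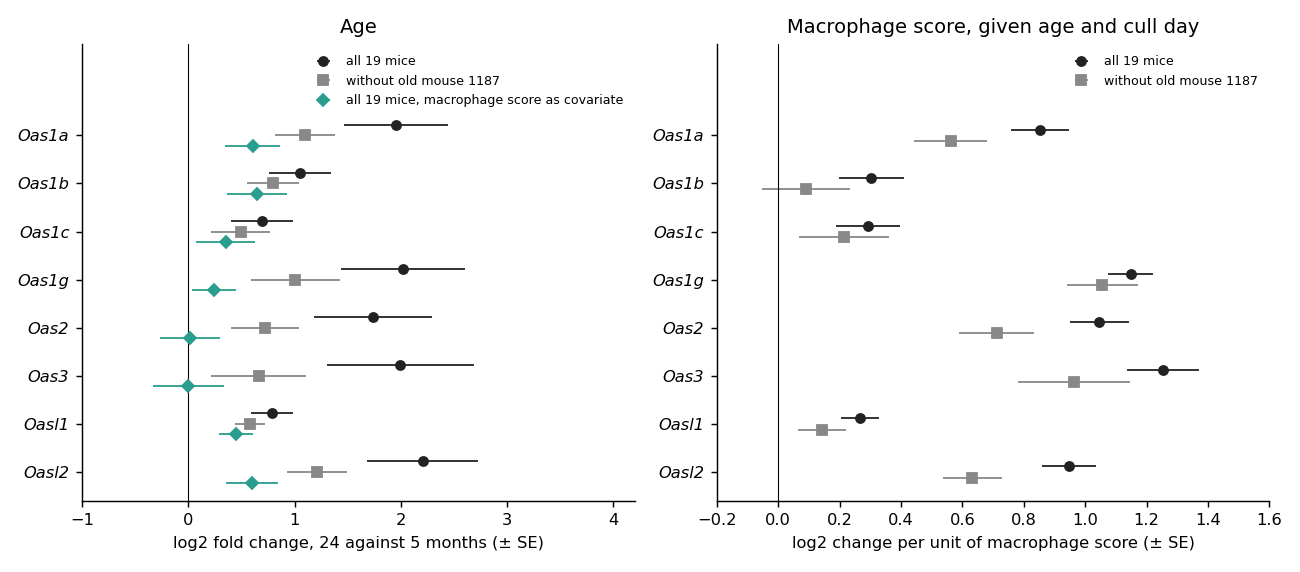
Left, log2 fold change of each OAS family member by age (± SE) for all 19 mice, without old mouse 1187, and with the macrophage score as a covariate; right, log2 change per unit of macrophage score given age and cull day (± SE), with and without that mouse. The age values of Oas2, Oas3 and Oas1g move from 1.73, 1.99 and 2.02 to 0.02, 0.001 and 0.24 with the score, and the slopes of Oas1b, Oas1c and Oasl1 are the shallowest of the 8.

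Macrophage markers were not alone in moving with age. The endothelial score differed between the ages by 0.587 in the same direction (exact permutation p = 0.0122) and the stellate score by 1.27 (exact permutation p = 0.000315). Of 11 endothelial markers tested 7 were called higher (6 without mouse 1187), and of 10 stellate markers 9 (6 without it), against 16.3% of all genes (12.4% without it). The part of these cells in the family's levels was not tested beyond their use as covariates. With either score in place of the macrophage score, 0 of 8 members were called higher with age in edgeR (1 and 2 at an unadjusted p under 0.05 in either direction). The background of genes called higher was 6.33% with the endothelial and 5.63% with the stellate score. In the stellate fit Oas3 was called lower in old mice (log2 fold change -1.75, edgeR adjusted p = 0.0138).

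A list of 24 genes that induce, relay or end the OAS signal was followed in the same fit. Of these, 20 were tested, 9 were called higher and 3 lower in old mice, and 7 and 3 without mouse 1187. Over all genes 16.3% were called higher and 14.5% lower, and 12.4% and 12.1% without that mouse. With the macrophage score in the fit, 6 of the 11 genes named below were called (Irf7, Il10rb, Abce1, Pde12, Akap7 and Mavs). As these 11 had been called without the score, that count is not set against the background of 10.1%.

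Ifnb1, Ifnl2 and Ifnl3, which encode interferon ligands, had 0 counts in every library, which allows up to 3 counts in each. Il10rb, the shared receptor chain for interferon lambda, rose with age. It stood at 4.52 ± 1.23 CPM (SD, n = 10) in young and 9.77 ± 6.41 CPM (SD, n = 9) in old mice, and its log2 fold change was 1.11 (SE 0.266, adjusted p = 0.00527 in edgeR). It also serves interleukin receptors and is found in macrophages. Ifnar1, a chain of the type I interferon receptor, rose by 0.18 (SE 0.0590, adjusted p = 0.0251 in edgeR). With the macrophage score in the fit Il10rb stood at 0.52 (edgeR adjusted p = 0.0191), and Ifnar1 at 0.18 was not called (edgeR adjusted p = 0.0726).

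Irf7, the transcription factor that amplifies interferon production, had the smallest p of the receptor, signalling and sensor genes. It averaged 26.4 ± 5.14 CPM (SD, n = 10) in young and 62.3 ± 45.2 CPM (SD, n = 9) in old mice, with 181 CPM in mouse 1187. Its log2 fold change was 1.20 (SE 0.252, adjusted p = 0.00227 in edgeR), 0.84 (SE 0.116, adjusted p = 7.94e-05 in edgeR) without that mouse, and 0.67 (SE 0.168, adjusted p = 0.00973 in edgeR) with the macrophage score in the fit. Irf7 was thus called in all 3 fits. Irf9, the DNA-binding part of the complex that acts on the response element, rose by 0.34 (SE 0.0906, adjusted p = 0.00997 in edgeR) and was not called with the score in the fit (0.19, edgeR adjusted p = 0.0802).

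Of the genes tied to 2-5A, Abce1, known as a ribosome recycling factor, fell with age. It stood at 77.7 ± 7.92 CPM (SD, n = 10) in young and 55.4 ± 6.65 CPM (SD, n = 9) in old mice, and its log2 fold change was -0.49 (SE 0.0760, adjusted p = 0.000245 in edgeR). Pde12, a phosphodiesterase that degrades 2-5A, fell by 0.57 on the log2 scale (SE 0.128, adjusted p = 0.00349 in edgeR). Akap7, an anchoring protein whose central domain can cut 2-5A, rose by 0.40 (SE 0.130, adjusted p = 0.0249 in edgeR). These 3 were also called with the macrophage score in the fit, at -0.51, -0.61 and 0.49 with edgeR adjusted p of 0.000493, 0.00569 and 0.0211. Their slopes on the score did not pass (edgeR adjusted p = 0.707, 0.681 and 0.417).

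Of the other sensors of double-stranded RNA, Ddx58 (RIG-I) rose by 0.38 (SE 0.110, adjusted p = 0.0142 in edgeR), Dhx58 (LGP2) by 0.53 (SE 0.163, adjusted p = 0.0193 in edgeR) and Tlr3 by 0.45 (SE 0.148, adjusted p = 0.0261 in edgeR). Tlr3 was not called without mouse 1187 (edgeR adjusted p = 0.0585). With the macrophage score in the fit none of these 3 was called, at 0.18, 0.23 and 0.20 (edgeR adjusted p = 0.120, 0.169 and 0.222). Mavs, the mitochondrial adaptor of RIG-I signalling, fell by 0.25 on the log2 scale (SE 0.0632, adjusted p = 0.00727 in edgeR), and was called with the score too (-0.22, edgeR adjusted p = 0.0373).

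**Figure D5:**
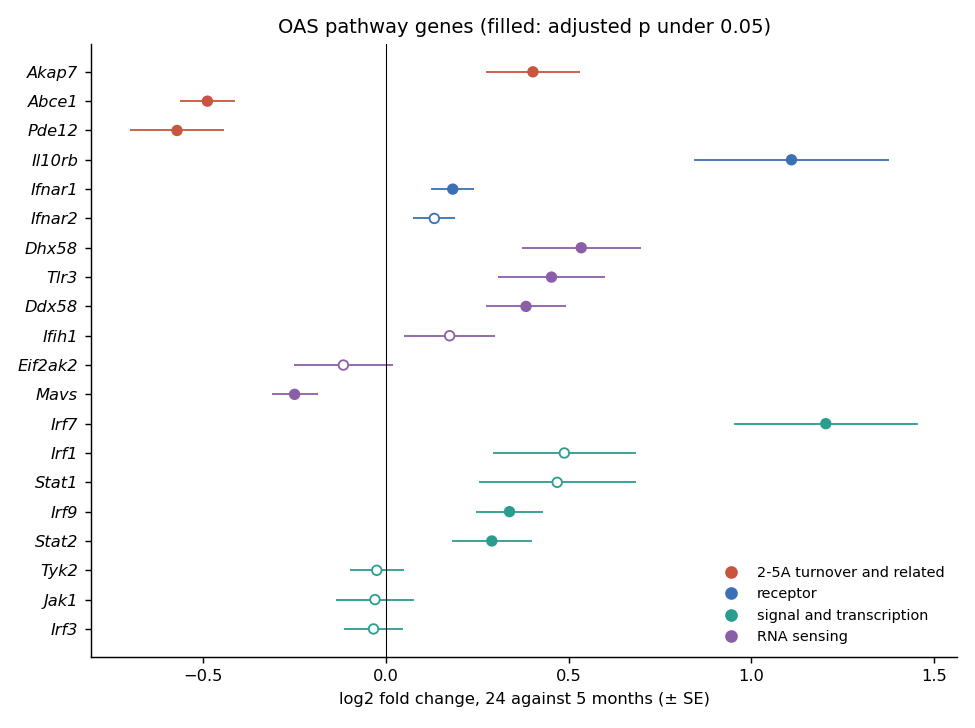
Log2 fold change by age (± SE) of the 20 OAS pathway genes tested, coloured by role, with filled points for genes called at an adjusted p of 0.05. Irf7 and Il10rb lie highest, at 1.20 and 1.11, and Abce1, Pde12 and Mavs are the 3 called below 0, at -0.49, -0.57 and -0.25.

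The genes whose levels most resembled each member were taken by Pearson r of log2 CPM over the 19 libraries among non-members. For Oas1a they were Fgl2 (0.972), Ifi44 (0.971) and Tlr4 (0.970), for Oasl2 Clec12a (0.978), Fgl2 (0.972) and Clec1b (0.972), and for Oas1g Nckap1l (0.979), Slfn5 (0.972) and Tnfrsf11a (0.971). For Oas2 they were Pilra (0.969), Lpcat2 (0.965) and Stk17b (0.962), and for Oas3 Ano6 (0.963), Csf2rb (0.948) and Vcam1 (0.946). Oasl1 resembled Rtp4 (0.927), Trim30a (0.912) and Irf7 (0.911). The nearest genes of Oas1b were Micall2 (0.860), Trim34a (0.855) and Cmpk2 (0.848), and those of Oas1c were Nt5c3b (0.847), Rnf219 (0.844) and Kdelc2 (0.840). Oas1b and Oas1c thus had the lowest r with their nearest genes. Without mouse 1187 the first value of each list was 0.935 for Oas1a, 0.945 for Oasl2, 0.963 for Oas1g, 0.924 for Oas2, 0.915 for Oas3, 0.858 for Oasl1, 0.805 for Oas1b and 0.813 for Oas1c.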

How the data were processed

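RNA was extracted with Trizol and chloroform and sequenced from stranded paired-end libraries, per the labels' protocols. The authors deposited a table of estimated counts per gene, made by HOMER over exons of RefSeq transcripts on mm10, 1 transcript per gene, per the file headers. The tools named are STAR and HOMER, per the submitters' processing notes. Their versions, the strand setting and the handling of reads with several matches are not given in the sources used here. Of the values 29.2% were not whole, in steps of 0.5, and they were rounded for the tests. The lengths used per kilobase are those in the deposited table, another quantity that the authors supplied.

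Genes passed edgeR's filterByExpr by age (minimum count 10), which all 8 members did, though some held under 10 counts in many libraries. Counts were scaled by TMM, and CPM were computed from them. The quasi-likelihood test (edgeR 4.0.16, R 4.3.3) used cull day as a covariate. A gene was called at a Benjamini-Hochberg adjusted p under 0.05 over all genes that passed. Standard errors are the log2 fold change, before edgeR's shrinkage, over the square root of F. Correlations used log2 CPM with a prior count of 2. Tests were two-sided. The edgeR age fit was tested on simulated data with the same dispersion for every gene and no outlying library. That test does not cover a library like that of mouse 1187. Alternatives used DESeq2 1.42.0 and limma 3.58.1. Python 3.11.15, numpy 2.4.6, pandas 2.3.3, scipy 1.17.1, matplotlib 3.10.9 and biopython 1.88 did the rest.

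All members are named. Of the pathway list, the 3 genes tied to 2-5A and the 8 others with the smallest p are named, with the undetected ligands added after their values were seen. 1 further gene of that list is not reported here. The 3 most similar genes of each member are named. Members, lists and tests were chosen with earlier results of these data known.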

Additional observations from a re-analysis of the deposited data

Results flagged for a closer look

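Old mouse 1187 was set off from the other old mice for 7 of the 8 members. In each, the gap between it and the next old mouse, as a share of the whole range of the 9 old mice, was above Dixon's 95% critical value of 0.493. Its levels were 28.8 CPM of Oas1a, 2.27 CPM of Oas1c, 13.97 CPM of Oas1g, 11.6 CPM of Oas2, 21.4 CPM of Oas3, 45.7 CPM of Oasl1 and 39.9 CPM of Oasl2. The share of the range taken by the gap was widest for Oas3 (0.936) and narrowest for Oas1c (0.549). For Oas1b the same mouse was highest without passing. Of 18 groups tested, 7 were set off in this way, where chance gives about 1 in 20 groups, and these 7 share a single library. The same mouse had the highest macrophage score (7.33), endothelial score (5.59) and stellate score (4.27). It was also highest for every lymphocyte marker of the list (Cd8a at 5.24 CPM, for example) and for Csf3r (8.47 CPM), a neutrophil marker. Among the old mice it was lowest for the hepatocyte markers Alb, Ttr, Apoa1, Cps1, Asgr1 and Hnf4a, but not for Cyp2e1 or Tat. The part of its makeup of cells in its OAS levels was not tested.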

How the results depend on the processing

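No paired analysis was possible because the library numbers differ for every mouse and are not shared between the ages. The count of 7 members called higher with age became 3 with a filter of 1 CPM in 9 libraries, which left 3 members to test, and 0 on the first cull day alone or with the macrophage, endothelial or stellate score added. The count of 3785 genes called by age became 450 on the first cull day, 2389 on the second, and 2455, 1462 and 1416 with the macrophage, endothelial and stellate scores. With the macrophage score, 3 members were called when it used the defining markers only (10.8% of all genes). The age value turned below 0 with the endothelial score for Oas2 (-0.19) and Oas3 (-0.22), and with the stellate score for Oas1a (-0.53), Oas1g (-1.03), Oas2 (-0.96), Oas3 (-1.75) and Oasl2 (-0.50). With the macrophage score it was already near 0 for Oas2 and Oas3. It went below 0 for Oas3 with defining markers (-0.0044), for Oas2 (-0.053) and Oas3 (-0.0505) with the median of the markers, and for Oas2 (-0.0042) and Oas3 (-0.0087) with library totals. The cause was not tested.

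Leaving out 1 mouse at a time gave 4 to 8 members and 3014 to 3949 genes called by age, 0 to 3 members with the macrophage score, and 5 to 8 members by slope or by correlation. In the fits with the macrophage score the age value then ran from -0.15 to 0.49 for Oas1c, -0.27 to 0.16 for Oas2 and -0.10 to 0.17 for Oas3. Oas1g and Oas2 lost their age call only without mouse 1187. The slope of Oas1b lost its call in 15 of 19 such fits. In limma-voom, Oas2 and Oas3 lost their age calls (limma adjusted p = 0.0619 and 0.0844). The fit without young mice 1184, 1186 and 1188 and old mouse 1187 together, and the list counts without mouse 1187, were chosen after seeing the data. DESeq2 gave no adjusted p for Oas3. With a median of 7.25 to 12.5 counts in young libraries, depth limits Oas1b, Oas1c, Oas1g, Oas2 and Oas3.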

Other observations

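The table holds 4 further Oas1 genes, none of which passed the count filter. Oas1d and Oas1f had 0 counts in every library, which allows up to 3 counts in each, and the highest count of either Oas1e or Oas1h in any library was 2.5. Transcripts of the Oas1 copies in these preparations were therefore counted almost wholly under Oas1a, Oas1b, Oas1c and Oas1g. The marker list for plasmacytoid dendritic cells, known for strong interferon output, had 1 of 5 genes tested and 0 called higher, and the lymphocyte list 1 of 9 tested and 0 called higher. With 1 gene tested in each list, these counts cannot show whether such cells changed with age. The neutrophil list had 1 of 5 tested, Csf3r, which was called higher (log2 fold change 2.10, SE 0.562, adjusted p = 0.00937 in edgeR) and was not called without old mouse 1187 (1.29, edgeR adjusted p = 0.0505). Lymphocyte markers summed to 1.16 to 2.91 CPM in young and 1.13 to 35.6 CPM in old libraries, plasmacytoid dendritic markers to 0.0561 to 7.86 and 0.215 to 16.2 CPM, and neutrophil markers to 0.110 to 5.07 and 0.935 to 14.8 CPM. Among the old mice every lymphocyte and neutrophil marker was highest in mouse 1187, which thus set the upper ends of both sums. The part of these cells in the family's levels was not tested.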
